A study of Mus musculus with 6 samples.

Results

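Regulatory T cells are known by a small set of genes that together mark the lineage. Here 10 of them, Foxp3, Ikzf2, Ikzf4, Il2ra, Il2rb, Ctla4, Tnfrsf18, Tnfrsf4, Nrp1 and Gpr83, were followed across 3 sorted populations of the mouse thymus, out of 20866 genes named on the array. They were taken by symbol, each with the probe that was brightest by its mean over the 6 arrays. The study compared TKO mice (TNFalpha-KO) with TAKO mice (TNFalpha and RelA double KO), both of strain C57BL/6 and aged 1.5 to 2 weeks. By these labels all groups lacked TNF, and the genotypes differed in RelA, a DNA-binding subunit of the transcription factor NF-kappaB. From each genotype, CD4+CD8α-CD25hi thymocytes were sorted from 5 mice. From 10 digested thymi came the CD45-EpCAM+ epithelial sort and the CD45+EpCAM- sort, a stromal fraction said to contain macrophages or dendritic cells. These are called CD25hi thymocytes, the epithelial sort and the CD45+ sort. The epithelial and CD45+ sorts are together called the stromal sorts, a name for the sorting and not for the cells found in them. RNA came from pooled cells, and each of the 6 groups was hybridised to 1 one-colour array, so that no group has replicates and the number of arrays limits the precision. Slides held 1 population each and both of its genotypes, and hence population and slide cannot be told apart.

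Foxp3 is the transcription factor that sets the regulatory T cell programme, and Helios (Ikzf2) and Eos (Ikzf4) are zinc finger proteins of the Ikaros family found with it. Developing regulatory T cells in the thymus depend on strong signals through the T cell receptor and on interleukin 2, which they bind through CD25 (Il2ra) together with CD122 (Il2rb) and the common gamma chain. They also carry the checkpoint receptor CTLA-4, the costimulatory TNF receptors GITR (Tnfrsf18) and OX40 (Tnfrsf4), neuropilin 1 (Nrp1) and the G protein-coupled receptor GPR83. CD25 was itself a sorting marker here, so the level of Il2ra in CD25hi thymocytes is given as a description without a test.

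Because RelA binds kappaB sites and interleukin 2 acts through STAT5, the 250 bases upstream of the members' start sites were read for both kinds of motif. RefSeq promoter windows (GRCm38.p6) were matched for 7 of the 10 genes, 8 windows in all since Foxp3 had 2 starts, and no window was matched for Ikzf2, Ikzf4 and Il2rb. The windows that carried a match are shown with that of Ctla4, the member with the largest genotype difference in CD25hi thymocytes. All run 5′ to 3′ on the plus strand, end at the base before the start site (base -1), and have motif matches in capitals.
Il2ra, chr2:11642542-11642791: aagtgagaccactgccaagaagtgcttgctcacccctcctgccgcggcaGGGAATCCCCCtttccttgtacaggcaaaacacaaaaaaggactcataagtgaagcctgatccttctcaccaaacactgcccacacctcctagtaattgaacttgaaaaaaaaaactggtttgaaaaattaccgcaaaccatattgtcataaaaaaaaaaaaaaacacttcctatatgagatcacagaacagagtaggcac
Tnfrsf18, chr4:156026072-156026321: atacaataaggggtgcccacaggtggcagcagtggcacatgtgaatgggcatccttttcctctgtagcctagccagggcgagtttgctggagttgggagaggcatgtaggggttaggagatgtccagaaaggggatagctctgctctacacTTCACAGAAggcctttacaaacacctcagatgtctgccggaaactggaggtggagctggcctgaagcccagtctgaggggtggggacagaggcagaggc
Foxp3, chrX:7580233-7580482: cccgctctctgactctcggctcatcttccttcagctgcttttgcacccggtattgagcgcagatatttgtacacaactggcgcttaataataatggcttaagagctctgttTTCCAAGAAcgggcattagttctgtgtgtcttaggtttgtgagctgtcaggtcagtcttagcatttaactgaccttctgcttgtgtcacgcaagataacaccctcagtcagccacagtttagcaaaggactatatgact
Ctla4, chr1:60908775-60909024: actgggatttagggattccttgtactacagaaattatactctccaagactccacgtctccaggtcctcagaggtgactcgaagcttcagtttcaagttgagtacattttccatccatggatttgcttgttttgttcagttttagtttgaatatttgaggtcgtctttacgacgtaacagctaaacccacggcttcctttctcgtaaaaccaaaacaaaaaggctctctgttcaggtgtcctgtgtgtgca
The Il2ra window held 2 overlapping matches to the kappaB consensus, GGGAATCCCC from base -201 to -192 and GGAATCCCCC from base -200 to -191. The Tnfrsf18 window held a match to the STAT motif TTCNNNGAA, TTCACAGAA from base -99 to -91. The window of the second Foxp3 start held another, TTCCAAGAA from base -139 to -131. The windows of Tnfrsf4, Ctla4, Nrp1, Gpr83 and the first Foxp3 start held no match to any motif searched. Over all 32851 windows of this length, searched on both strands, 3.9% held the kappaB consensus and 7.02% the STAT motif. The forkhead motif GTAAACA was in 3.17% and the RUNX motif TGTGGTT in 4.4%, and neither was in a window of the members. A match is a string of letters and not a measured binding site.

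Levels are log2 processed signal minus the 75th percentile of the array, so that a level of 0 is the signal under which 75% of probes lie, and they were not set against each other between probes. The targeted gene Rela had levels of 4.52 in TKO and 2.66 in TAKO CD25hi thymocytes, 3.84 and 1.81 in the epithelial sort, and 4.04 and 3.30 in the CD45+ sort. It was lower in TAKO in each pair, least so in the CD45+ sort (-0.74). The probe for Tnf, knocked out in both genotypes by the labels, lay between -2.71 and -0.57 and was not used as a check. Among 6 epithelial marker genes, Foxn1 and Psmb11 were well above background only in the epithelial sort. In both genotypes 6 of 6 were well above background in that sort, 3 of 6 in CD25hi thymocytes and 4 of 6 in the CD45+ sort. Their summed levels were 191 to 192, 0.242 to 0.349 and 0.211 to 0.243 in the same order. T lineage markers were not confined to the thymocyte sort: 6 of 6 on the array were well above background on every array. The macrophage markers were well above background in the CD45+ sort for 5 of 5 genes in both genotypes, and the dendritic cell markers for 5 of 5 in TKO and 4 of 5 in TAKO. The macrophage markers were also well above background in the epithelial sort, 5 of 5 in both genotypes, with summed levels of 5.0 and 7.49 in TKO and TAKO against 8.85 and 14.6 in the CD45+ sort. The summed T lineage level, in units of the 75th percentile, was 201 to 225 in CD25hi thymocytes, 47.9 to 90.2 in the epithelial sort and 243 to 255 in the CD45+ sort. Siglech, listed as a plasmacytoid dendritic cell marker, lay between 5.35 and 7.42 and was well above background on all arrays. The TAKO epithelial array was the dimmest, with 47.3% of probes well above background against 55.1% to 66.2% on the others, and its lowest measurable level was -2.82 against -5.54 to -4.51.

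In CD25hi thymocytes all 10 genes were well above background in both genotypes, and all 10 had their highest levels there. Of the 9 genes other than Il2ra, 9 were higher there than in the epithelial sort and 7 were higher than in the CD45+ sort, at an adjusted p under 0.05 and at least 2-fold in limma. Over all 15144 genes fitted, 16.5% and 3.92% were called higher in these comparisons, and 24.4% and 6.35% lower, where no member was. Median differences of the 9 genes were 5.54 and 4.04 on the log2 scale, against 0.03 and 0.05 over all genes. The fit was additive in population and genotype and had 2 residual degrees of freedom. In these bulk samples, fewer regulatory T cells and less of the RNA per cell cannot be told apart.

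**Figure D1:**
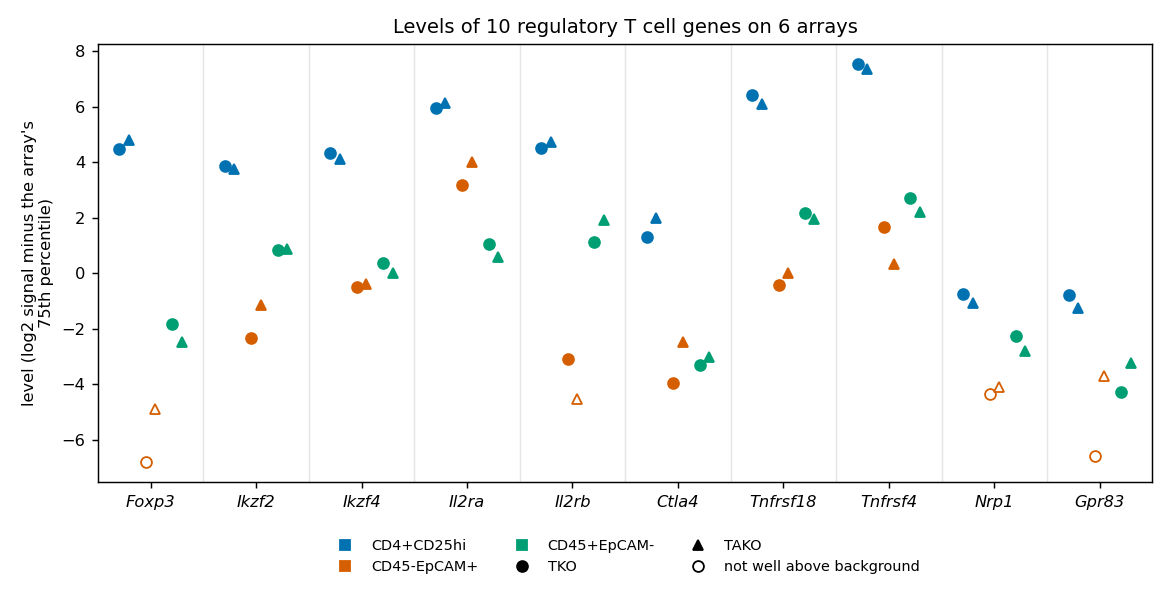
Level of each of the 10 genes on the 6 arrays (log2 signal minus the array's 75th percentile), with colour for the population, circles for TKO and triangles for TAKO, and open symbols where the probe was not well above background. The CD25hi points lie above the other populations for all 10 genes, and the open symbols are all from the epithelial sort.

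Among the transcription factors, Foxp3 had levels of 4.47 in TKO and 4.79 in TAKO CD25hi thymocytes, and -1.82 and -2.48 in the CD45+ sort. In the epithelial sort it stood at -6.81 and -4.88, not well above background in either genotype. The thymocyte arrays thus lay far above the rest without overlap. Foxp3 was 6.78 higher in CD25hi thymocytes than in the CD45+ sort (SE 0.70, limma adjusted p = 0.0245) and at least 344-fold higher than in the epithelial sort (limma adjusted p = 0.00261). The first call was lost with no filter on dim probes (adjusted p = 0.0507) and without any one of the 4 arrays compared, the range over all alternatives being 0.00423 to 0.152. Bounds set the bright group against the lowest measurable signal of the dim arrays. A p-value beside a bound, here and below, is for the fitted difference, which takes in the dim values. The bounds themselves were not tested. Foxp3 was also at least 3.13-fold lower in the epithelial than in the CD45+ sort (limma adjusted p = 0.0198), a call that was lost with normexp background correction (adjusted p = 0.518, the range over all alternatives being 0.00317 to 0.518).

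Helios (Ikzf2) stood at 3.86 and 3.75 in TKO and TAKO CD25hi thymocytes, -2.34 and -1.13 in the epithelial sort, and 0.83 and 0.88 in the CD45+ sort. The populations did not overlap, and the epithelial arrays were the only pair that lay far apart. The difference was 5.54 from the epithelial sort (SE 0.40, limma adjusted p = 0.00304) and 2.94 from the CD45+ sort (SE 0.40, limma adjusted p = 0.0339). The second was lost with quantile normalization (adjusted p = 0.059, range over all alternatives 0.00908 to 0.194). Ikzf2 differed by -2.59 between the epithelial and the CD45+ sort (SE 0.40, limma adjusted p = 0.0127). That call was not kept under every alternative, and with an array left out the difference ran from -3.21 to -1.97.

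Eos (Ikzf4) had levels of 4.34 and 4.12 in TKO and TAKO CD25hi thymocytes, -0.49 and -0.39 in the epithelial sort, and 0.36 and 0.03 in the CD45+ sort. Only the thymocyte arrays stood clear, since the other sorts lay within a log2 unit of each other. Ikzf4 was 4.67 higher than in the epithelial sort (SE 0.17, limma adjusted p = 0.00124) and 4.04 higher than in the CD45+ sort (SE 0.17, limma adjusted p = 0.013). The difference between those sorts, -0.63 (SE 0.17, limma adjusted p = 0.0471), was under 2-fold. A second Ikzf4 probe gave like values, while the remaining probe was far dimmer, at -1.56 and -1.79 in the thymocytes and not well above background in the epithelial sort.

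Of the interleukin 2 receptor chains, Il2ra stood at 5.96 and 6.14 in TKO and TAKO CD25hi thymocytes, 3.17 and 4.003 in the epithelial sort, and 1.06 and 0.59 in the CD45+ sort. It was the only member whose second highest population was the epithelial sort. There it was 2.76 higher than in the CD45+ sort (SE 0.37, limma adjusted p = 0.00922), while all 9 other genes lay lower in the epithelial sort by their means. Foxp3 was not well above background on the same epithelial arrays. Il2rb, the chain that carries the signal, had another order, with levels of 4.53 and 4.73 in the thymocytes, -3.09 and -4.52 in the epithelial sort, and 1.12 and 1.91 in the CD45+ sort. Its TAKO value in the epithelial sort was not well above background. Il2rb was 8.44 higher in the thymocytes than in the epithelial sort (SE 0.62, limma adjusted p = 0.0031), a size that takes in that TAKO value. Without that array, so that it was set against the measured TKO array alone, the difference was 7.47 (limma adjusted p = 0.00623). Its difference of 3.12 from the CD45+ sort (SE 0.62) missed the threshold in limma (adjusted p = 0.0607). Without the TKO, the TAKO or both epithelial arrays it passed (SE 0.21, limma adjusted p = 0.0249), and it passed with normexp and with a trended prior too (adjusted p from 0.00519 to 0.282 over all alternatives).

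Ctla4, whose product competes with CD28 for CD80 and CD86, had levels of 1.33 and 2.00 in TKO and TAKO CD25hi thymocytes, -3.95 and -2.46 in the epithelial sort, and -3.30 and -3.01 in the CD45+ sort. The thymocyte arrays were high and the other sorts overlapped. Ctla4 was 4.86 higher than in the epithelial sort (SE 0.34, limma adjusted p = 0.00293) and 4.82 higher than in the CD45+ sort (SE 0.34, limma adjusted p = 0.0156). The difference between those 2 sorts was -0.05 (SE 0.34, limma adjusted p = 0.916), too uncertain to order them.

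GITR (Tnfrsf18) had levels of 6.41 and 6.10 in TKO and TAKO CD25hi thymocytes, -0.43 and 0.00 in the epithelial sort, and 2.16 and 1.97 in the CD45+ sort. OX40 (Tnfrsf4) stood at 7.54 and 7.37, then 1.68 and 0.35, then 2.72 and 2.22 in the same order. Both had the order thymocytes, CD45+ sort and epithelial sort without overlap. Tnfrsf18 was 6.47 and 4.19 higher in the thymocytes than in the epithelial and CD45+ sorts (SE 0.24, limma adjusted p = 0.00124 and 0.014). Tnfrsf4 was 6.44 and 4.99 higher (SE 0.34, limma adjusted p = 0.00177 and 0.0146). Between the stromal sorts, epithelial minus CD45+, Tnfrsf18 differed by -2.28 (limma adjusted p = 0.00618) and Tnfrsf4 by -1.45 (limma adjusted p = 0.0317). The Tnfrsf18 call was not kept under every alternative, and with an array left out the difference ran from -2.62 to -1.94. The Tnfrsf4 call was lost with quantile normalization (adjusted p = 0.0533) and with median centring (adjusted p = 0.0556), the range over all alternatives being 0.0111 to 0.161.

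Nrp1, a receptor for semaphorins and VEGF, had levels of -0.76 and -1.07 in TKO and TAKO CD25hi thymocytes, and -2.27 and -2.79 in the CD45+ sort. In the epithelial sort it stood at -4.34 and -4.10, not well above background. It had the smallest called difference between thymocytes and the CD45+ sort among the members, 1.61 (SE 0.24, limma adjusted p = 0.0401), lost with normexp background correction (adjusted p = 0.0919, range over all alternatives 0.0266 to 0.236). It was at least 6.33-fold higher than in the epithelial sort (limma adjusted p = 0.00317), also lost with normexp (adjusted p = 0.071, range 0.00112 to 0.071). Nrp1 was at least 2.07-fold lower in the epithelial than in the CD45+ sort (limma adjusted p = 0.0111), but the fitted difference of -1.69 turned to 0.16 with normexp (adjusted p = 0.721, range 0.00247 to 0.721). Gpr83 had levels of -0.77 and -1.25 in the thymocytes and -4.27 and -3.22 in the CD45+ sort. In the epithelial sort it stood at -6.59 and -3.71, not well above background. It was at least 6.91-fold higher in the thymocytes than in the epithelial sort (limma adjusted p = 0.0267), lost with normexp (adjusted p = 0.0586) or without one of 4 single arrays (adjusted p 0.0524 to 0.0918), the lowest over all alternatives being 0.00971. Its difference of 2.74 from the CD45+ sort (SE 0.89) did not pass (limma adjusted p = 0.135).

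Between the stromal sorts, 6 of 10 members were called lower in the epithelial than in the CD45+ sort and 1, Il2ra, higher, where 17.5% and 23.2% of all genes were called. By means, 9 members had the order CD25hi thymocytes, CD45+ sort, epithelial sort, with the stromal sorts not separated by a call for Ctla4, Ikzf4 and Gpr83. The T lineage markers also lay lower in the epithelial sort, 6 of 6 by call, with a median of -2.35. Against the CD45+ sort, however, Cd3e of the T cell receptor complex differed in the thymocytes by 0.27 (SE 0.32, limma adjusted p = 0.602) and the kinase gene Lck by -0.29 (SE 0.37, limma adjusted p = 0.63). The CD45+ sort also carried immature thymocyte genes, with a summed level of 74.2 to 121 against 2.43 to 4.97 in the thymocyte sort, 5 of 5 being well above background. The part of these cells in the members' levels was not tested. The calls against the CD45+ sort rested on every array of the pair: without any one of the 4 arrays of those populations, 0 of 9 members passed in limma, the fit then having 1 residual degree of freedom.

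**Figure D2:**
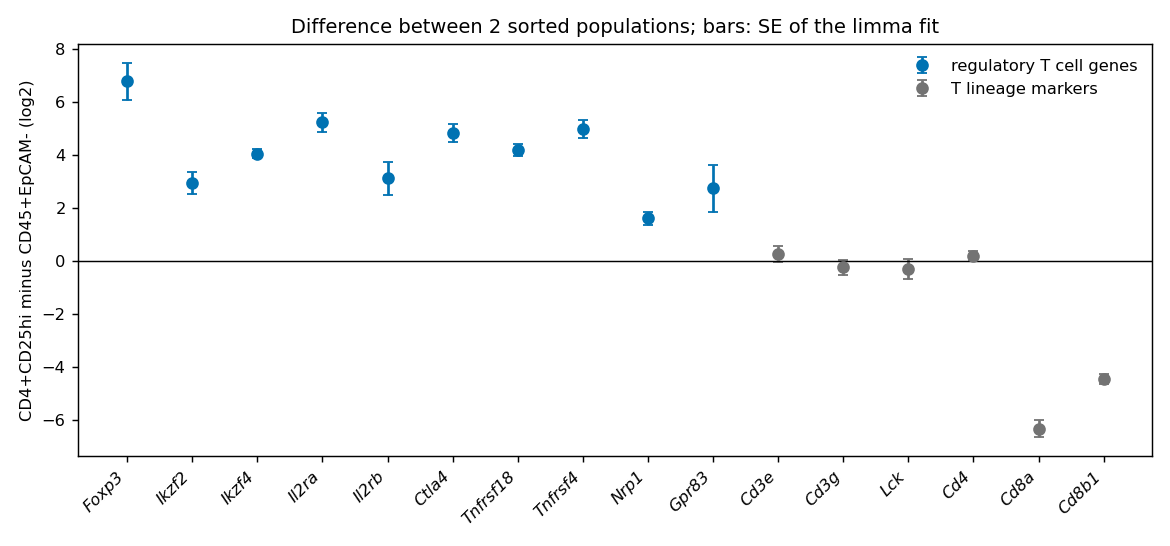
Difference between CD25hi thymocytes and the CD45+ sort (log2) for the 10 genes in blue and 6 T lineage markers in grey, with bars for the standard error of the limma fit. The members lie between 1.61 and 6.78, while Cd3e, Cd3g, Lck and Cd4 lie near 0 and the CD8 genes far below it, CD8α having been selected against in the thymocyte sort.

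Across the 6 arrays, the other members correlated with Foxp3 at Pearson r from 0.619 for Il2ra to 0.995 for Tnfrsf18, values set largely by the 3 populations and including probes not well above background. Among the genes most like Foxp3, of 15143, were Rpl15 (r = 0.9992), Ormdl3, Bicdl1 and Zfp213. Those most like Il2ra were Atg2a (r = 0.9996), Zfp982, Agr3, Slc39a13 and Dennd5a. The likeness is one of shape only. Rpl15, for example, ran from 6.68 to 7.78 over the arrays, where Foxp3 ran from -6.81 to 4.79.

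Within CD25hi thymocytes 0 of the 10 genes were 2-fold apart between TAKO and TKO, with 1 array per genotype and hence no test. The share of all genes measured that were 2-fold apart in either direction was 2.95%. Differences, TAKO minus TKO, ran from -0.48 to 0.67 with a median of -0.14, against -0.02 over all genes, and 4 genes were higher and 6 lower in TAKO. The scanner's own error of such a difference was about 0.20, and it leaves out the spread between mice and between sorts. Differences between probes of one gene had an SD of 0.22 here, and 5 of 10 members differed by more than that, as did 45% of all genes.

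The member farthest apart was Ctla4 at 0.67 (1.59-fold higher in TAKO), and 6.78% of genes well above background on both arrays were at least as far apart. Foxp3 differed by 0.33 and the receptor chains Il2ra and Il2rb by 0.18 and 0.20, all higher in TAKO. Helios and Eos differed by -0.11 and -0.22. The costimulatory receptors Tnfrsf18 and Tnfrsf4 lay at -0.31 and -0.18, and the surface receptors Nrp1 and Gpr83 at -0.31 and -0.48. Only Ctla4 stood over 3 scanner errors from 0. Summed T lineage markers were 225 in TKO and 201 in TAKO thymocytes, and summed immature thymocyte markers 4.97 and 2.43, with 5 of 5 lower in TAKO. The part of that shift in the members' differences was not tested.

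**Figure D3:**
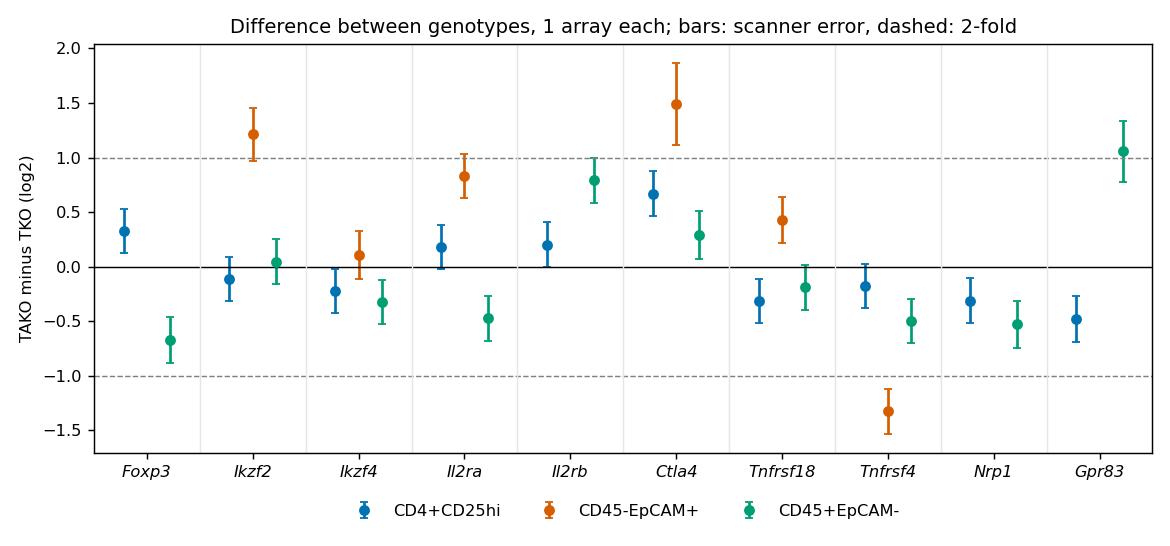
Difference between genotypes (TAKO minus TKO, log2, 1 array each) for each gene measured on both arrays of a population, with bars for the scanner error and dashed lines at 2-fold. The CD25hi points all lie between -0.48 and 0.67, and Ikzf2, Ctla4 and Tnfrsf4 in the epithelial sort and Gpr83 in the CD45+ sort lie beyond a dashed line.

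In the epithelial sort 6 of the 10 members were measured in both genotypes and 3 were at least 2-fold apart, 2 higher and 1 lower in TAKO, where 14.4% of all genes were (5.1% higher and 9.3% lower). Beyond the SD between probes, 0.33 here, were 5 of the 6 and 50.1% of all genes. Ctla4 was 2.81-fold higher in TAKO (1.49, scanner error 0.38), and 1.15 with normexp. Its levels, -3.95 in TKO and -2.46 in TAKO, lay near the lowest measurable levels of these arrays, -4.78 and -2.82. Ikzf2 was 2.32-fold higher (1.21, scanner error 0.24), its other probe giving 0.83. Tnfrsf4 was 2.51-fold lower in TAKO, a difference of -1.33 (scanner error 0.21). Il2ra, Tnfrsf18 and Ikzf4 differed by 0.83, 0.43 and 0.11. With normexp the Il2ra difference was 0.41, and the mean over Ikzf4 probes gave 0.68. Foxp3, Nrp1 and Gpr83 were not well above background in either genotype, and Il2rb not in TAKO, so that no fold is given. T cell genes also differed in this pair. Cd3e differed by 0.98, Lck by 0.94 and the CD45 gene Ptprc by 1.18, while Cd4 differed by 0.33 and Cd8b1 by -0.14, and 0 of 6 T lineage markers were 2-fold apart. The summed T lineage level was 47.9 in TKO and 90.2 in TAKO. Summed immature thymocyte markers were 33.4 and 66.6, with 5 of 5 higher in TAKO and 2 of them at least 2-fold. The part of these in the members' differences was not tested.

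In the CD45+ sort 1 of 10 members was at least 2-fold apart, against 3.89% of all genes (1.82% higher and 2.08% lower). This was Gpr83, 2.08-fold higher in TAKO at levels near the lower end of the array's range (1.06, scanner error 0.28), and it was 0.45 with normexp. Beyond the SD between probes, 0.21 here, were 8 of 10 members and 39.3% of all genes. Il2rb was 0.79 higher in TAKO and Ctla4 0.29. Foxp3 differed by -0.67, Nrp1 by -0.53, Tnfrsf4 by -0.50, Il2ra by -0.47, Ikzf4 by -0.33 and Tnfrsf18 by -0.19, while Ikzf2 differed by 0.05. The median was -0.26, with 4 genes higher and 6 lower. Summed T lineage markers were 255 in TKO and 243 in TAKO, immature thymocyte markers 121 and 74.2 with 5 of 5 lower, dendritic cell markers 3.31 and 1.13, and macrophage markers 8.85 and 14.6. Of the 5 dendritic cell markers 3 were at least 2-fold lower in TAKO. The part of these markers in the members' differences was not tested.

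Fitted over the 3 populations together, the genotype effect was called for 0 of 10 members and 0 of all genes (0%) in limma at an adjusted p under 0.05. At an unadjusted p under 0.05 there were 903 of 15144 genes (5.96%), with Ctla4 as the only member. Ctla4 was 0.82 higher in TAKO (SE 0.28, limma adjusted p = 0.717), and higher in each of the 3 pairs. Tnfrsf4 differed by -0.67 (SE 0.27, limma adjusted p = 0.717) and was lower in TAKO in each of the 3 pairs. In CD25hi thymocytes its difference of -0.18 lay within the scanner error of 0.20. The share of all genes with the same sign in all 3 pairs was not counted. Without either epithelial array the effects were 0.48 for Ctla4 and -0.34 for Tnfrsf4. An interaction of genotype and population could not be fitted with 6 arrays in 6 groups.

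The genes around the members were read from lists chosen for what they are known to do, after earlier results of these data had been seen. No list was tested as a set. None of the 26 partners and regulators of Foxp3 measured in CD25hi thymocytes differed 2-fold between genotypes, and their median was -0.07. Of all genes 2.95% did, so that a count of 0 lies near that share. The farthest apart were the nuclear receptor genes Nr4a3 (-0.97) and Nr4a1 (-0.71), which respond to T cell receptor signals, and Stat5a (-0.43) and Stat5b (-0.36). Of the 26, 18 were higher and 1 lower in the thymocytes than in the epithelial sort, where 16.5% and 24.4% of all genes were. Against the CD45+ sort 3 were higher, Foxo1, Bach2 and Kat2b, where 3.92% of all genes were. No gene of the 15 measured in interleukin 2 receptor signalling differed 2-fold, again near the 2.95% of all genes, with a median of -0.02. The farthest apart were the feedback inhibitors Socs2 (0.76) and Socs3 (0.59), Stat5a again, and the cytokine gene Il2 (0.40). Il2 stood at -4.76 in TKO and -4.36 in TAKO, close to the lowest measurable levels of these arrays, -4.84 and -4.51.

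Against the CD45+ sort 5 of 16 genes of this receptor pathway were higher in the thymocytes and 0 lower, where 3.92% and 6.35% of all genes were. They were Jak3 (2.02), Cish (4.86), Socs2 (3.35), Socs3 (1.46) and Mcl1 (1.23), of which Cish, Socs2 and Socs3 are induced by STAT5 or other STAT proteins in a feedback loop. Cish was also 2.91 higher in the epithelial than in the CD45+ sort (SE 0.18, limma adjusted p = 0.00266), the same order of the stromal sorts as Il2ra. Il15, a cytokine that shares Il2rb with interleukin 2, was well above background only in the epithelial sort. There it was at least 6.49-fold higher than in the thymocytes and at least 11.3-fold higher than in the CD45+ sort (limma adjusted p = 0.00367 and 0.00547). Cish and Il15 were picked out after their values were seen.

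The list of ligands and partners of the members also held Icosl, whose receptor ICOS is not a member. Of its 9 genes measured in the thymocytes, 1 was 2-fold apart, where 2.95% of all genes were, and the median was 0.27. It was Vegfa, a ligand of neuropilin 1, at -2.74 in TKO and -0.94 in TAKO (3.47-fold higher). Cd28 differed by -0.49, Pcsk1n, whose product is the source of a proposed GPR83 ligand, by 0.46, and Sema4a by 0.31. Of the ligand genes of OX40 and GITR, Tnfsf4 was not well above background on any array, and Tnfsf18 only on the TKO epithelial array. In the epithelial pair 1 of 9 genes of this list was at least 2-fold higher in TAKO and 2 lower. The shares of all genes were 5.1% and 9.3%, and the list's median was -0.04. There Cd86, a ligand of CTLA-4 picked out after its value was seen, differed by -1.47, and Cd80, also a ligand, by -0.74.

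Beyond the 10 members, 4 of 26 other genes linked to regulatory T cells were at least 2-fold lower in TAKO thymocytes and 0 higher, where 1.28% and 1.68% of all genes were. They were Klrg1 (-1.40), Il1rl1 (-1.40), Lag3 (-1.29) and Pdcd1 (-1.06), which encode an inhibitory lectin, the interleukin 33 receptor and the checkpoint receptors LAG-3 and PD-1. Their levels in TKO and TAKO were -1.93 and -3.34, -2.29 and -3.69, -1.75 and -3.04, and 2.45 and 1.40. The median of this list was -0.24. The list was chosen with earlier results of these data known, and with 1 array per genotype the count was not tested. With normexp the share of all genes at least 2-fold apart in this pair, either way, was 0.399%, against 2.95%. Against the CD45+ sort 10 of 27 of these genes were higher in the thymocytes and 0 lower, where 3.92% and 6.35% of all genes were called.

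**Figure D4:**
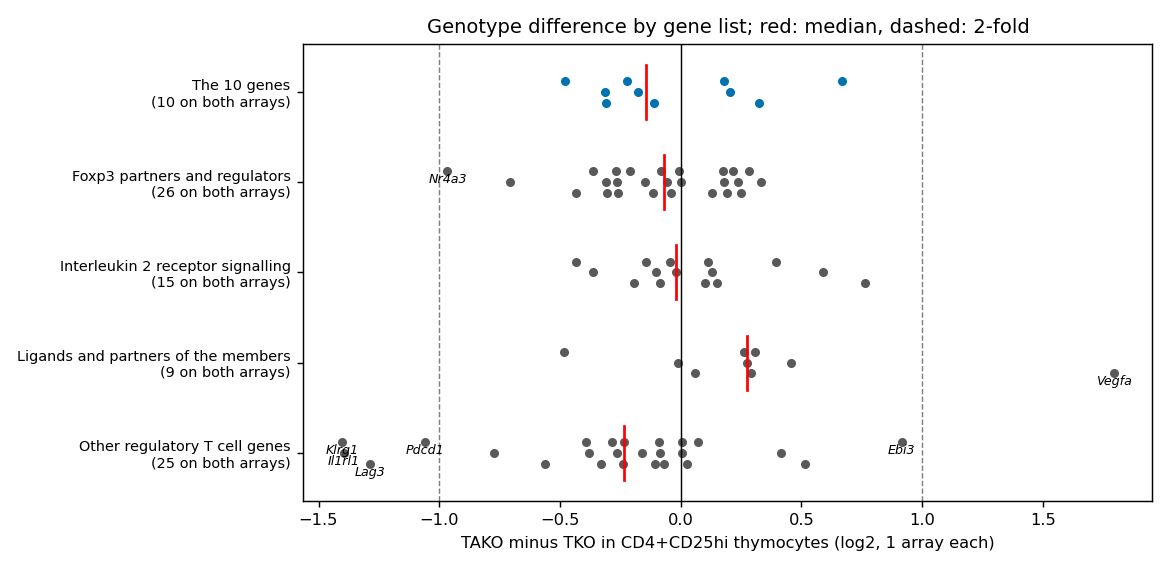
Difference between genotypes in CD25hi thymocytes (TAKO minus TKO, log2, 1 array each) for the 10 genes and for 4 lists of related genes, each point a gene well above background on both arrays, with a red bar at the list's median and dashed lines at 2-fold. The 10 genes stay inside the dashed lines, and the points outside them are Vegfa, Klrg1, Il1rl1, Lag3 and Pdcd1.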

How the data were processed

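The 6 samples were read as Agilent one-colour arrays of design 026655 (design build mm9), made with Feature Extraction 10.5.1.1 per the file headers; the submitters' processing notes name version 9.5. The deposited scanner files give intensity per probe, with the background already subtracted by that software per the file headers and no scaling between arrays. The deposited table of log2 values equalled log2 processed signal minus the array's 75th percentile, within 0.05 for 100.0% of probes; other steps of the authors are not given in the sources used here. The same scaling was used here. RNA was pooled per the labels' protocols.

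Of 39419 probes used, 27472 had 1 symbol through their accession, 35 several and 11912 none, and 10 that were flagged as outliers or had no signal on an array were left out. Genes had to be well above background on at least 2 arrays to enter limma 3.58.1 (R 4.3.3; lmFit and eBayes, population plus genotype), with Benjamini-Hochberg adjustment over all 15144 genes. A call needed an adjusted p under 0.05 and at least a 2-fold difference. Within a population the genotypes have 1 array each and no test; a pair with 1 dim array gives a bound where the bound exceeds 1, and a pair with 2 dim arrays gives none. The error of a spot is Feature Extraction's own. The fit was run on simulated data with the same normal noise for all genes and no lower limit of signal. That run does not bear on how the calls hold for dim probes.

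The members and lists were chosen with earlier results of these data known. The text names all 10 members, from each further list up to 4 genes with the largest genotype difference in CD4+CD25hi cells, the 5 genes most like Foxp3 and most like Il2ra, and markers (1 gene under this rule is not reported here); other genes were picked after their values were seen. Alternatives were quantile normalization, median centring, normexp with an offset of 50, the mean over probes, the deposited table, other filters, a trended robust prior and leaving out each array. Normexp on the mean signal could not be run because the files used hold no such column, and the median signal was used instead, a choice made after seeing the data, as was leaving out both CD45-EpCAM+ arrays.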

Additional observations from a re-analysis of the deposited data

Results flagged for a closer look

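For 3 members the genotype difference had opposite signs in a pair of populations and the populations differed from each other by at least 2-fold. Each rests on 1 array per group, and the difference was not tested. The share of all genes meeting the same rule was not counted. For Ikzf2 the difference between TAKO and TKO was -0.11 for CD4+CD25hi thymocytes but 1.21 for CD45-EpCAM+ cells, -1.32 between the populations. The -0.11 lay within its scanner error of 0.20. The other Ikzf2 probe gave -0.15 and 0.83, under 2-fold between the populations. For Il2ra it was 0.83 in CD45-EpCAM+ cells and -0.47 in CD45+EpCAM- cells, 1.31 between them. For Gpr83 it was -0.48 for CD4+CD25hi thymocytes but 1.06 for CD45+EpCAM- cells, -1.54 between them. With normexp the Il2ra difference in CD45-EpCAM+ cells was 0.41 and the Gpr83 difference in CD45+EpCAM- cells 0.45. Both gaps between populations were then under 2-fold.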

How the results depend on the processing

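The number of members at least 2-fold apart between genotypes stayed at 0 in CD4+CD25hi and 3 in CD45-EpCAM+ cells under all alternatives run. In CD45+EpCAM- cells it was 1 and became 0 with quantile normalization and with normexp, which put the Gpr83 difference at 0.45. Members called for CD4+CD25hi against CD45+EpCAM- cells were 7, but 4 with no filter on dim probes, and 0 to 8 with an array left out, being 0 without any one of the 4 arrays of these populations. For CD45-EpCAM+ against CD45+EpCAM- cells they were 7, and 2 to 7 with an array left out (2 without the TKO and 4 without the TAKO CD45+EpCAM- array). For CD4+CD25hi against CD45-EpCAM+ cells they were 9, and 8 to 9 with an array left out; normexp gave 7. The genotype effect common to the populations had 0 called members under all alternatives run. The Nrp1 difference between CD45-EpCAM+ and CD45+EpCAM- cells turned from -1.69 to 0.16 with normexp, and the cause was not tested. No paired analysis was possible because the labels carry no replicate numbers beyond 1 array per group; population was already a block in the genotype fit. No scaling moved the median genotype difference of all genes by 0.1 or more. Signal over background limits Foxp3, Nrp1 and Gpr83 in CD45-EpCAM+ cells to bounds, and Il2rb was measured there on 1 of 2 arrays.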

Other observations

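Some other genes linked to regulatory T cells were high in the CD45-EpCAM+ sort too. Cd83, a surface protein of activated and of thymic epithelial cells, had levels of 6.00 and 6.80 in TKO and TAKO CD45-EpCAM+ cells, 4.10 and 3.53 for CD25hi thymocytes, and 1.70 and 0.78 in CD45+EpCAM- cells. It differed by -2.58 between thymocytes and CD45-EpCAM+ cells (SE 0.49, limma adjusted p = 0.0202). Penk, the proenkephalin gene, and Plagl1, a zinc finger gene, were 4.64 (SE 0.44) and 4.72 (SE 0.31) higher in thymocytes than in CD45+EpCAM- cells (limma adjusted p = 0.0217 and 0.0146). CD45-EpCAM+ cells also exceeded CD45+EpCAM- cells in both genes, by 3.97 (SE 0.44) and 4.48 (SE 0.31), with limma adjusted p = 0.00658 and 0.00317. By contrast Lrrc32, which encodes the TGF-beta carrier GARP, was 6.42 (SE 0.36) higher in thymocytes than in CD45+EpCAM- cells (limma adjusted p = 0.013), and in CD45-EpCAM+ cells it was well above background on 1 of 2 arrays. Icosl, the ligand of the costimulatory receptor ICOS, had levels of 3.51 and 1.85 in TKO and TAKO CD45-EpCAM+ cells and -0.32 and -1.59 in CD45+EpCAM- cells, lower in TAKO in both. These genes were picked out after their values were seen.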
